A study of Mus musculus with 3 samples.

Results

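Sterol synthesis enzymes, the regulators of SREBP and the LXR and cholesterol efflux genes were examined in RNA of the chromatin fraction of mouse macrophages. The set holds 36 genes chosen by symbol, all of which were found among the 55536 genes of the deposited tables. They fall into 13 LXR and efflux genes, 6 SREBP regulators and 17 synthesis enzymes. The cells were bone-marrow-derived macrophages, primary cells grown from marrow of C57BL/6J mice. They received Lipid A, the lipopolysaccharide anchor sensed by TLR4, at 100 ng per ml for 12 h, were washed out for 12 h, and were taken at 0 min of a second dose. Total RNA bound to chromatin was sequenced after ribosomal depletion, so the values hold nascent and nuclear transcripts and are not levels of cytoplasmic mRNA. There is 1 group of 3 biological replicates and no untreated group, so the values describe this state alone and no effect of Lipid A can be read from them. All 3 libraries carry 1 donor identifier, and nothing in the labels says whether the cultures came from separate animals, so the spread between them may be partly technical. Sex and age were not collected.

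SREBPs are membrane-bound transcription factors that SCAP escorts out of the endoplasmic reticulum when sterol runs low, and that INSIG proteins hold back when sterol is plentiful. Once cleaved, they switch on the enzymes that build cholesterol and fatty acids. LXRs are nuclear receptors that bind oxysterols and other sterol intermediates and raise the genes that move cholesterol out of the cell. Macrophages take up lipoproteins and dying cells, so efflux and esterification of cholesterol are central to their biology.

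Replicates 1, 2 and 3 held 11802407, 17201281 and 19428384 expected counts over genes, made from 1000, 250 and 500 ng of RNA. All 10 macrophage markers reached 1 TPM in each library, with summed levels of 854, 1101 and 990 TPM (TPM is a gene's read density per length, as a share of its library). Replicate 3 stood apart. The 11 fibroblast and stromal markers summed to 1.3 and 2.57 TPM in replicates 1 and 2 and to 596 TPM in replicate 3. Dcn, Thy1 and Pdgfra were listed at 0 in replicates 1 and 2. The 8 neutrophil markers and the 8 T and B cell markers stayed under 1 TPM in all 3 libraries, with summed levels of at most 1.77 and 1.05 TPM. Of the 8 endothelial markers 4 reached 1 TPM in every library, and they summed to 40.7, 31.0 and 40.9 TPM, mostly from Vwf. In such bulk RNA, fewer cells of a type and less RNA per cell cannot be told apart.

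The 3 groups of genes sat at different levels, with the LXR and efflux genes on top, the SREBP regulators in the middle and the synthesis enzymes at the bottom. The median member had 67.1 ± 8.32 TPM among LXR and efflux genes, 16.3 ± 2.99 TPM among SREBP regulators and 5.79 ± 1.30 TPM among synthesis enzymes (SD of the 3 library medians). All 22028 protein-coding genes had a median of 0.913 ± 0.299 TPM, and the 10877 with a mean of at least 1 TPM had 11.8 TPM. Against that second median, 11 of 13 LXR and efflux genes, 3 of 6 SREBP regulators and 3 of 17 synthesis enzymes lay above. This order of the medians held in each library and in both deposited quantifications.

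**Figure D1:**
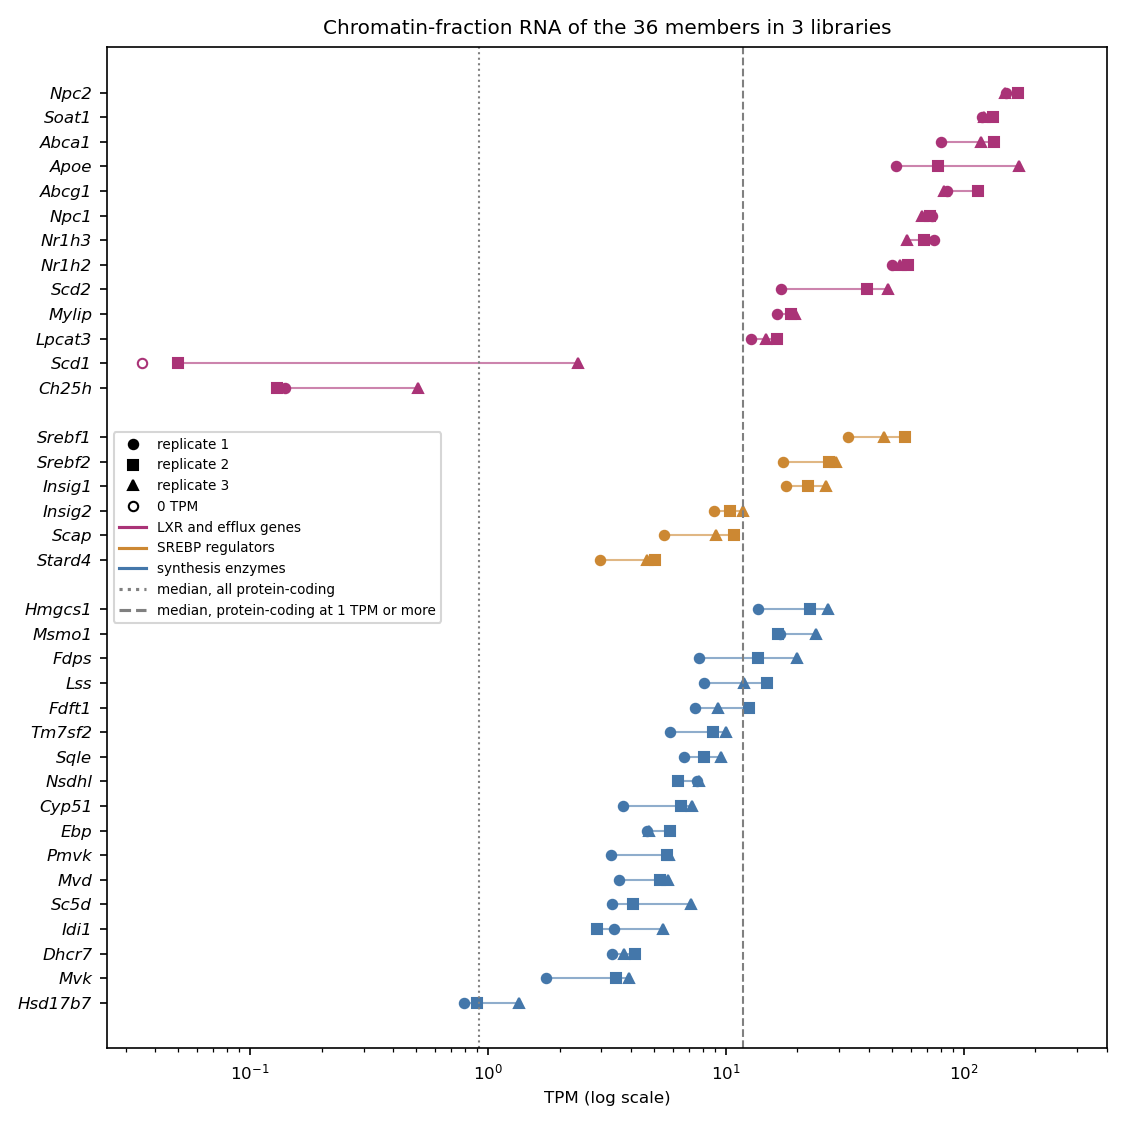
TPM of each member on a log axis, with 1 symbol per library and the line joining the lowest and highest non-zero value; the open symbol marks a value of 0 and the grey lines mark medians of protein-coding genes. The LXR and efflux genes lie mostly to the right of the dashed line at 11.8 TPM. By mean TPM 14 of 17 synthesis enzymes fall to its left, though Lss and Fdft1 have some library values to its right.

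On the log2(TPM + 1) scale, the difference in medians between LXR and efflux genes and synthesis enzymes was 3.23, 3.24 and 2.84 in replicates 1, 2 and 3, with a mean of 3.10 ± 0.227 (SD, n = 3). Between LXR and efflux genes and SREBP regulators it was 1.97, 2.07 and 1.65, with a mean of 1.89 ± 0.217. Between SREBP regulators and synthesis enzymes it was 1.26, 1.18 and 1.19, with a mean of 1.21 ± 0.0432. Each difference was positive in 3 of 3 libraries and several times its SD. An exact two-sided sign-flip test gave p = 0.25 for each, the smallest value that 3 libraries allow.

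The genes within a group were far from uniform. Only 9 of the 13 LXR and efflux genes exceeded in mean alignment-based TPM the synthesis enzyme with the highest such mean, Hmgcs1, and so did 3 of the 6 SREBP regulators. Ch25h and Scd1, both in the LXR and efflux group, were among the lowest of all members.

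The LXR receptors themselves were well represented. Nr1h3 (LXR alpha, chr2:91184061-91202834, minus strand, mm10) had 75.13, 68.29 and 57.91 TPM in replicates 1, 2 and 3. Nr1h2 (LXR beta, chr7:44549616-44553951) had 49.73, 58.08 and 53.96 TPM. Nr1h3 was the higher in all 3 libraries, but in replicate 3 the values lay close together and the mean log2 ratio was only 0.31 ± 0.255 (SD, n = 3). Of their dimer partners, Rxrb averaged 21.3 TPM and Rxra 9.99 TPM.

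Ch25h, the enzyme that makes the oxysterol LXR ligand 25-hydroxycholesterol and a known interferon target, was almost silent. Its single-exon gene (chr19:34473778-34475164) had 2, 2 and 10 expected counts, or 0.14, 0.13 and 0.51 TPM. The count in replicate 3 stands at 3.04 times that of replicate 1 in counts per library total, with an exact 95% interval from 0.647 to 28.5 that covers counting error only. No difference between libraries could be detected for Ch25h at this depth.

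The sterol transporters were among the most abundant members. Abca1 (chr4:53030787-53159895), which loads cholesterol and phospholipid onto lipid-poor apolipoprotein, had 79.92, 133.44 and 118.29 TPM. It drew 9178, 18247 and 19973 expected counts, more than any other member. Abcg1 (chr17:31057675-31117988), which exports cholesterol to mature HDL, had 85.05, 115.2 and 82.64 TPM. Replicate 2 was highest for both. The log2 ratio of Abca1 over Abcg1 averaged 0.213 ± 0.304 and changed sign between libraries, so their whole-gene TPM could not be separated. Their longest coding transcripts did differ. Abca1-201 (10262 bases) had 77.49, 129.46 and 115.49 TPM, and Abcg1-201 (5832 bases) had 25.08, 34.44 and 25.16 TPM. Their read-based means were 105.2 and 25.21 TPM. The shorter Abcg1-202 (1085 bases) and Abcg1-205 (1372 bases) averaged 35.49 and 30.28 TPM.

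The promoter of Abca1 is shown because it carries the letters of an LXR response element, 2 copies of NGGTNA separated by 4 bases (DR4). Capitals mark the pair, which reads on the opposite strand of the gene and starts 67 bases before the RefSeq start. The window spans 250 bases before that start and 50 after it (RefSeq, GRCm38.p6, chr4:53159846-53160145, minus strand).
Abca1: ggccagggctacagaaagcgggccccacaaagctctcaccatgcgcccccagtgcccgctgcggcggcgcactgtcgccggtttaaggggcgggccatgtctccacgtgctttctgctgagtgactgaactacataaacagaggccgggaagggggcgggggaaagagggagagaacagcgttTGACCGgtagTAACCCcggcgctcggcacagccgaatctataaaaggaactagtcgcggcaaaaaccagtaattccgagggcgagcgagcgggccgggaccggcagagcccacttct
Windows of this length were in the RefSeq table for 28 of the 36 members, 39 windows in all. DR4, searched on both strands, occurred in 0.718% of all 32851 windows and in 2 of the 39 member windows, those of Abca1 and of 1 start of Srebf1. A match describes the letters only and is no evidence of binding.

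Apoe (chr7:19696109-19699188), the lipid carrier secreted by macrophages, had 51.83, 78.24 and 170.37 TPM. Replicate 3 stood above the others, and the spread reached 62.1% of the mean, against 17.2% for the median detected protein-coding gene. Fibroblast and stromal markers summed to 1.3, 2.57 and 596 TPM in the same libraries; their part in the Apoe value was not tested. Among the other listed LXR targets, Pltp (phospholipid transfer) averaged 76.0 ± 23.7 TPM, Rnf145 63.3 ± 11.6 TPM and Lpl (lipoprotein lipase) 59.1 ± 27.2 TPM (SD, n = 3 each). The lowest of that list, Apoc1, an apolipoprotein, was listed at 0 in every library of the alignment-based table. Of the 12 listed genes 9 were at 1 TPM or more in all libraries.

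Mylip, the ubiquitin ligase that targets the LDL receptor, varied little at 16.35, 18.78 and 19.53 TPM. Lpcat3, which inserts polyunsaturated fatty acids into phospholipids, had 12.76, 16.36 and 14.7 TPM. The stearoyl-CoA desaturases behaved unlike one another. Scd2 (chr19:44293674-44306864) had 17.09, 39.11 and 47.92 TPM, lowest in replicate 1. Scd1 (chr19:44394455-44407879) had 0, 3 and 187 expected counts, or 0, 0.05 and 2.39 TPM. Scd2 was far above Scd1 in each library, with log2 ratios of 9.61 and 4.33 in replicates 2 and 3. Relative to library totals, Scd1 in replicate 3 was at least 37.9-fold higher than in replicate 1, taking 3 counts as the floor of a library at 0, and 55.2 times replicate 2 (exact 95% interval 18.6 to 270). The same library held the stromal markers at 596 TPM; their part in the Scd1 value was not tested. Scd1 and Scd2 are close relatives, and reads shared between them could be split by the counting. The posterior SDs of their counts were small, at 0, 0.08 and 0.38 reads for Scd1 and 0, 0.08 and 0.29 reads for Scd2. A split of reads was not tested.

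The genes that receive and store cholesterol were high, and they were steady in the alignment-based table. Npc2 (chr12:84754562-84773152), the soluble lysosomal carrier that hands cholesterol to NPC1, had 150.46, 169.58 and 148.59 TPM, the highest alignment-based mean of all members. Npc1, its membrane partner, had 73.73, 72.06 and 66.59 TPM, and its SD of 5.28% of the mean was the smallest of all members in that table. Read-based, Npc1 had 121.3, 90.02 and 100.8 TPM and varied more than Mylip, at 23.88, 24.58 and 25.2 TPM. Soat1 (chr1:156424525-156474331), which esterifies cholesterol for storage, had 118.76, 132.69 and 121.77 TPM. In the read-based table Npc2 had 176.5, 145.3 and 146.3 TPM and lay below Soat1, with 229.1, 170.9 and 183.3 TPM, in each library. In none of the 3 genes did the highest alignment-based library exceed the lowest by as much as the libraries of Abca1 or Apoe. The log2 ratio of Npc2 over Npc1 was 1.03, 1.23 and 1.16 in the 3 libraries, and 0.541, 0.69 and 0.537 in the read-based table.

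Of the wider list of 15 sterol uptake, transfer and ester genes, 13 reached 1 TPM in each library, and the list's median was 19.7 TPM. Lrp1 (lipoprotein receptor) averaged 266 ± 52.4 TPM, Gramd1a (sterol transfer from the plasma membrane) 118 ± 20.2 TPM and Lipa (lysosomal acid lipase) 95.7 ± 15.2 TPM. Cyp7b1, which hydroxylates oxysterols, was lowest at 0, 0 and 0.36 TPM. Soat2, the relative of Soat1, averaged 4.0 ± 1.26 TPM, against 124.4 ± 7.33 TPM for Soat1.

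SREBP regulators lay between the other groups. Srebf2 (chr15:82147181-82205379) had 17.45, 27.14 and 28.93 TPM, and Srebf1 (chr11:60199089-60222581, minus strand) had 32.74, 56.49 and 46.42 TPM. Srebf2, the factor best known for cholesterol genes, was below Srebf1, better known for fatty acid genes, in all 3 libraries. The log2 ratio of Srebf2 over Srebf1 was -0.908, -1.06 and -0.682, with a mean of -0.883 ± 0.189. This comparison of whole genes depends on which transcripts are counted, since most of the Srebf1 TPM came from short ones. Most of its reads did not. The long coding transcript Srebf1-201 alone held 363.08, 743.5 and 737.48 of the gene's 562, 1231 and 1201 expected counts. Srebf2 had 647, 1245 and 1609 expected counts, more than Srebf1 in each library.

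Of the Srebf1 total, the 3 protein-coding transcripts summed to 9.62, 19.08 and 14.73 TPM, and the 9 transcripts annotated as non-coding processed transcripts to 23.12, 37.4 and 31.7 TPM. The coding ones are 3177 to 4299 bases long and the others 367 to 945 bases. The coding sum was therefore below the 17.45, 27.14 and 28.93 TPM of the whole Srebf2 gene, and above the 6.52, 10.65 and 12.6 TPM of its main coding transcript, Srebf2-201. Srebf1-201, which starts 1.98 kb after the first annotated start, held 7.55, 13.1 and 10.56 TPM. Srebf1-207, which starts 12.1 kb after it, held 1.01, 4.65 and 3.16 TPM. Srebf1-203, with a start 15.4 kb after it, held 1.06, 1.33 and 1.01 TPM. The 201 transcript was the highest coding one in each library. Srebf1-204, the 2-exon transcript at the first start, averaged 10.4 TPM in the read-based table but 0.587 TPM in the alignment-based one.

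**Figure D2:**
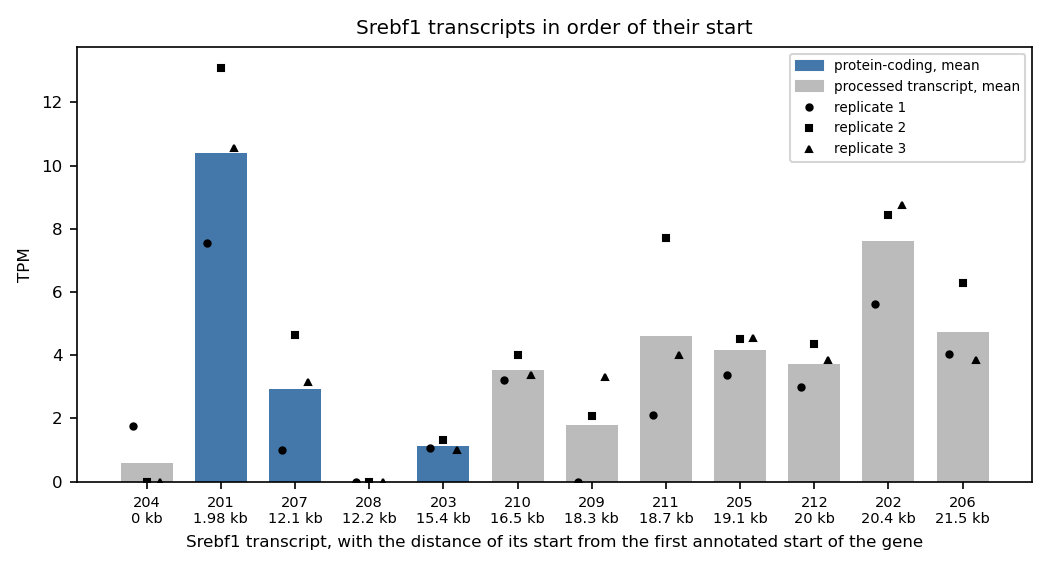
Mean alignment-based TPM of the 12 annotated Srebf1 transcripts (bars) with each library (symbols), ordered by the distance of their start from the first annotated start. Among the coding transcripts Srebf1-201 is highest, and the processed transcripts that start 16.5 kb or more downstream together hold most of the gene's TPM.

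A pair of RefSeq windows of Srebf1 are shown because they lie at the starts of these coding transcripts. The first begins transcription at 60220627, near Srebf1-201, and the second at 60210471, near Srebf1-207 (GRCm38.p6, chr11:60220578-60220877 and chr11:60210422-60210721, minus strand). Capitals mark DR4 pairs and the CCAAT box, the letters bound by NF-Y, a partner of SREBP, read on either strand.
Srebf1 at 60220627: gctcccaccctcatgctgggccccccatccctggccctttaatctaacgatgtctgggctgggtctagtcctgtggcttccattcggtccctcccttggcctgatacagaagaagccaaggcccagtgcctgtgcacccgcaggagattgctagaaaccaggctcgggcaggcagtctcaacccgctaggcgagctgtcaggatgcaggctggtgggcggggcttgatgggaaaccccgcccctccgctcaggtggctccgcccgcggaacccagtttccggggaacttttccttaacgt
Srebf1 at 60210471: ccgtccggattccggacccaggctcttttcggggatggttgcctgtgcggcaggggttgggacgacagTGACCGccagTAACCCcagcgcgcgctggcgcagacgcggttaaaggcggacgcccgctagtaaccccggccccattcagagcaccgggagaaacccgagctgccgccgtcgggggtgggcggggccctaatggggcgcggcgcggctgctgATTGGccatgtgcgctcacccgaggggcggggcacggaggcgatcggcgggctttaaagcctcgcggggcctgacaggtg
The downstream window holds a DR4 pair 182 bases before its start and a CCAAT box 30 bases before it. The upstream window holds neither. The starts were not assigned here to SREBP-1a and SREBP-1c, the protein forms made from alternative first exons.

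Insig1 and Insig2, which retain SCAP in the endoplasmic reticulum, differed in level. Insig1 (chr5:28071363-28078662), itself a classic SREBP target, had 17.92, 22.1 and 26.45 TPM. Insig2 (chr1:121304353-121332589), which is less dependent on SREBP, had 8.89, 10.37 and 11.83 TPM. The log2 ratio of Insig1 over Insig2 was 1.01, 1.09 and 1.16, a mean of 1.09 ± 0.0748. In the read-based table it was -0.0489, -0.269 and 0.256, a mean of -0.0207, so the difference in whole-gene TPM rests on the quantification. That between the coding transcripts Insig1-201 and Insig2-201, both of 2697 bases, did not. Insig1-201 had 9.8, 10.73 and 14.64 TPM, and Insig2-201 had 2.66, 3.06 and 3.11 TPM. Their read-based means were 10.33 and 2.062 TPM.

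Scap (chr9:110333288-110384950), the escort, had 5.49, 10.85 and 9.11 TPM, lowest in replicate 1. Stard4, a cytosolic sterol carrier and SREBP target, had 19.69, 17.17 and 21.2 TPM in the read-based table, against 2.96, 5.03 and 4.67 TPM in the alignment-based one. The read-based mean was 4.59 times the other, and this was the widest gap between the quantifications among members. The processing proteases followed at higher levels, with Mbtps1 (site-1 protease) at 39.0 ± 6.33 TPM and Mbtps2 (site-2 protease) at 17.1 ± 1.48 TPM. Nfya, a subunit of NF-Y, was highest of the 8 listed co-factors at 73.0 ± 4.48 TPM, and Rnf139, a ubiquitin ligase, had 18.6 ± 0.909 TPM. All 8 reached 1 TPM in each library.

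Among the synthesis enzymes, 16 of 17 reached 1 TPM in each library, against 10150 of all 22028 protein-coding genes. An average of at least 10 TPM was reached by 4 enzymes, or 23.5%. That compared with 27.2% of all protein-coding genes and 55.2% of those averaging at least 1 TPM. The mevalonate steps opened with Hmgcs1 (HMG-CoA synthase, chr13:119690379-119708260), at 13.59, 22.59 and 26.98 TPM. Mvk and Pmvk, the kinases that phosphorylate mevalonate, had 1.76, 3.45 and 3.93 TPM and 3.29, 5.65 and 5.74 TPM. Mvd, the decarboxylase that follows them, had 3.57, 5.3 and 5.7 TPM. Hmgcs1, Mvk, Pmvk and Mvd were each lowest in replicate 1, as were 62.7% of protein-coding genes averaging at least 1 TPM. Idi1, the isomerase that forms the second isoprene unit, had 3.38, 2.88 and 5.42 TPM, and Fdps (farnesyl diphosphate synthase, chr3:89093588-89101959) had 7.71, 13.65 and 19.89 TPM.

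The promoters of Hmgcs1 and Msmo1, the enzymes with the highest mean TPM in both tables, are shown because they carry the CCAAT box that all enzymes with a window share. Capitals mark CCAAT on either strand and, in Hmgcs1, also TCACNCCAC, the core letters of a sterol regulatory element (RefSeq, GRCm38.p6, chr13:119690101-119690400, plus strand, and chr8:64733529-64733828, minus strand).
Hmgcs1: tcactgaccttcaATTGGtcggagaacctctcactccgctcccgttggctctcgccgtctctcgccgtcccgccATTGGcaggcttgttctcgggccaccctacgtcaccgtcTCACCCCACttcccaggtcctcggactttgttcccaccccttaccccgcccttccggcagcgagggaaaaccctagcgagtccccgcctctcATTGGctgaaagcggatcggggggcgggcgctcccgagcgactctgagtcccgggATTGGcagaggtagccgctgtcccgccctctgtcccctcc
Msmo1: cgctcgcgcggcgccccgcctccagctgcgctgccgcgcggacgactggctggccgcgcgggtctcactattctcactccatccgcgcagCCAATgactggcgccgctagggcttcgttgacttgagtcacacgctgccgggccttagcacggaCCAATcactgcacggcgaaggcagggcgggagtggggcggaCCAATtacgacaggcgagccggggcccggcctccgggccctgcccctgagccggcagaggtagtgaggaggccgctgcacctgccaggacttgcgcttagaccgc
CCAAT occurred in at least 1 window of all 14 enzymes with a window and in 14 of their 17 windows. It occurred in 5 of 10 windows of SREBP regulators, in 4 of 12 windows of LXR and efflux genes and in 37.4% of all 32851 windows. TCACNCCAC occurred in 1 of the 39 member windows, that of Hmgcs1 at 137 bases before the start, and in 1.24% of all windows. The E-box CACGTG occurred in 7 of the 39, those of Hsd17b7, Abca1, Insig1, Dhcr7, Sc5d and Scap, and in 7.15% of all windows. None of these motifs overlaps another in the printed windows.

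The squalene branch was next. Fdft1 (squalene synthase), which commits farnesyl units to sterols, had 7.39, 12.49 and 9.28 TPM. Sqle (squalene epoxidase), a rate-limiting enzyme, had 6.64, 8.12 and 9.53 TPM. Lss (lanosterol synthase, chr10:76531588-76557138), which closes the sterol rings, had 8.11, 14.9 and 11.97 TPM. All were lowest in replicate 1 in TPM, against 62.7% of detected protein-coding genes, but in CPM Fdft1 had 19.61, 26.81 and 19.55 and was lowest in replicate 3. Their median of 9.72 TPM compared with 4.88 TPM for the mevalonate steps and 5.44 TPM for the steps after lanosterol. In the read-based table these medians were 11.8, 10.05 and 6.634 TPM. The squalene branch was highest in both quantifications, but the place of the mevalonate steps rests on the quantification.

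After lanosterol, Cyp51, the demethylase of the first step, had 3.68, 6.48 and 7.22 TPM. Tm7sf2, a sterol reductase, had 5.83, 8.8 and 10.06 TPM. Msmo1 (chr8:64718139-64733792), which oxidises methyl groups of the sterol ring, had 16.85, 16.59 and 23.89 TPM and was the highest of this branch. Nsdhl, which removes them as a decarboxylase, had 7.58, 6.32 and 7.7 TPM. In alignment-based TPM it varied least of all enzymes, with an SD of 10.6% of the mean. In CPM Nsdhl had 13.69, 9.058 and 11.76 and varied more than Sqle, at 20.03, 20.38 and 23.72. Hsd17b7, the keto-reductase of the same complex, was the lowest enzyme at 0.79, 0.9 and 1.35 TPM. The last steps were made up of Ebp (an isomerase) at 4.65, 5.84 and 4.75 TPM, Sc5d (a desaturase) at 3.33, 4.06 and 7.11 TPM and Dhcr7, the reductase that yields cholesterol, at 3.31, 4.15 and 3.74 TPM. The range of Sc5d overlapped that of both others. Ebp exceeded Dhcr7 in each library of the alignment-based table, but in the read-based table it had 4.42, 4.12 and 4.32 TPM, against 9.75, 12.4 and 11.9 TPM for Dhcr7, so their order rests on the quantification.

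The fatty acid synthesis genes, also SREBP targets, had a list median of 6.02 TPM. Of 13 genes, 10 were at 1 TPM or more in all libraries. Elovl1 averaged 41.8 ± 10.6 TPM, Acly (ATP citrate lyase) 38.6 ± 7.47 TPM and Acaca (acetyl-CoA carboxylase) 36.1 ± 5.94 TPM. Fasn, the fatty acid synthase, had 6.08, 15.41 and 13.7 TPM and was lowest in replicate 1, as Scd2 was with 17.09, 39.11 and 47.92 TPM. Me1, the malic enzyme, was lowest at 0.28, 0.16 and 2.1 TPM and, like Scd1, was highest in the library with stromal markers at 596 TPM, whose part was not tested.

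The libraries of the group were compared with one another in CPM (counts scaled to library size with TMM factors, 0.1 added), over genes averaging at least 10 counts, which 35 of the 36 members and 16200 genes did. Ch25h did not. Past 2-fold in either direction were 2 of 35 members between replicates 2 and 1 (6.17% of all genes), 4 of 35 between replicates 3 and 1 (11.9%) and 2 of 35 between replicates 3 and 2 (9.36%). The first pair held Scd2 and Scd1, the second Fdps, Apoe, Scd1 and Scd2, and the third Apoe and Scd1. The shares of members were near those of all genes. Scd1 enters the first pair on 0 and 3 counts, so that call rests on the 0.1 added, and it was lost with 1 CPM added.

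**Figure D3:**
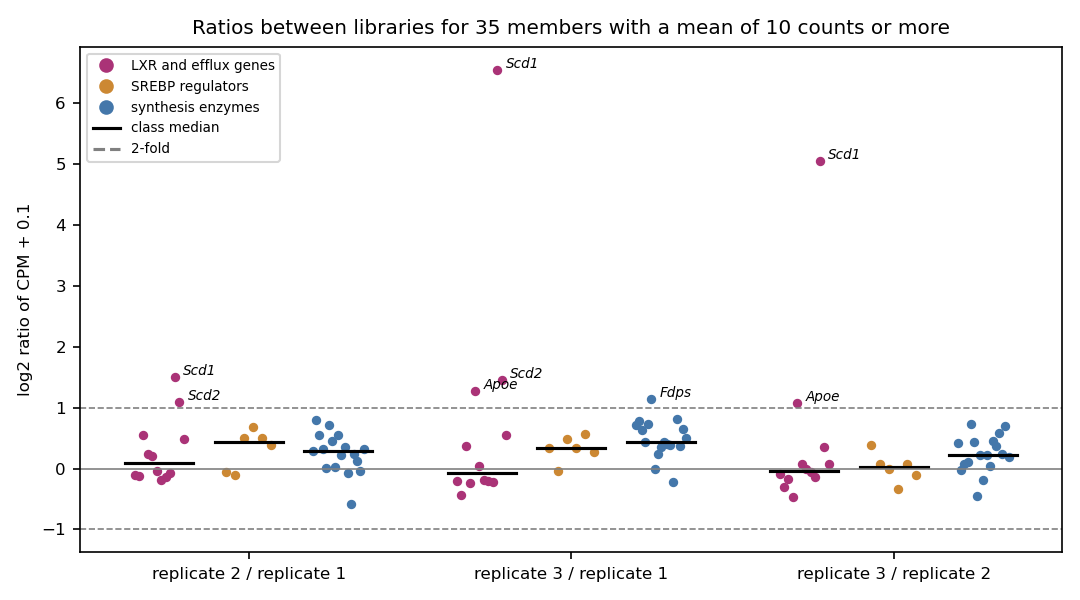
Log2 ratio of CPM + 0.1 between each pair of libraries for the 35 members averaging at least 10 counts, with group medians as bars. Most synthesis enzymes lie above 0 when replicate 1 is the denominator, and Scd1 stands far above the rest when replicate 3 is the numerator.

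More of the synthesis enzymes were higher in replicates 2 and 3 than in replicate 1. Higher in replicate 2 than in replicate 1 were 14 of 17 enzymes, against 50.5% of all genes, with a median log2 ratio of 0.295, against 0.0054. Higher in replicate 3 than in replicate 1 were 15 of 17, against 51.9%, with a median of 0.44, against 0.018. Higher in replicate 3 than in replicate 2 were 14 of 17, against 51.5%, with a median of 0.22, against 0.013. These pairs share libraries, so they are not separate observations. The LXR and efflux genes split as 6 of 12, 6 of 12 and 5 of 12 higher in the same pairs, and the SREBP regulators as 4, 5 and 3 of 6. Stromal markers summed to 1.3, 2.57 and 596 TPM in replicates 1, 2 and 3; their part in these ratios was not tested. The starting RNA was 1000 ng in replicate 1 and 250 and 500 ng in the others; its part was not tested. In TPM, where the median of all genes shifted by 0.241, 0.216 and -0.0226 in the same pairs, the enzyme medians were 0.557, 0.666 and 0.191. On that scale 14, 17 and 13 of 17 enzymes were higher, 6, 6 and 3 of 6 SREBP regulators, and 10, 8 and 4 of 12 LXR and efflux genes, against 70.5, 70.7 and 47.3% of all genes. The LXR and efflux median for replicate 3 over replicate 1 was -0.0739 in CPM and 0.16 in TPM.

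None of the members tested was called in a test of spread. An edgeR quasi-likelihood fit compared each gene's variation over the 3 libraries with the trend of genes of like abundance, in 14839 genes that passed edgeR's expression filter. At a Benjamini-Hochberg adjusted p of 0.05, 0 of 34 members and 0% of all genes were called. Scd1, the member with the largest spread, and Ch25h did not pass the filter, nor did 10 of the 11 stromal markers. Without the filter all 36 members were tested by edgeR and 0 were called, against 50 of 25532 genes, or 0.196%. In that fit 4 members, or 11.1%, had an unadjusted p under 0.05, Scd1 among them, against 5.82% of genes. With the filter, 3 of 34 members, or 8.82%, had an unadjusted p under 0.05, against 747 genes, or 5.03%. By the edgeR quasi-likelihood test Scd2 had an adjusted p of 0.445 (0.00453 unadjusted), Apoe one of 0.475 (0.00538 unadjusted) and Fdps one of 0.963 (0.0431 unadjusted). Scd2 had 76.8, 165 and 211 CPM in replicates 1, 2 and 3, Apoe 41.3, 47.9 and 100.6 CPM, and Fdps 9.43, 15.5 and 20.9 CPM. Without replicate 3, the library with the stromal markers, 73 of 14603 genes, or 0.5%, were called. Scd2 was the only 1 of 34 members among them.

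Much of the members' TPM lay in transcripts annotated with a retained intron. Of the 26 members with such an isoform, the median share of a gene's TPM in them was 45.8 ± 4.97% (SD of the 3 library medians), against 47.1 ± 3.07% for 6697 detected protein-coding genes with one. The median was 51.2% among 8 LXR and efflux genes, 43.6% among 5 SREBP regulators and 40.9% among 13 synthesis enzymes. In the read-based table these medians were 47.3% among LXR and efflux genes, 50% among SREBP regulators and 38.4% among synthesis enzymes, so the order of the first pair of groups turned. The members were thus near the level of all such genes in this nuclear fraction. Because the alignment was to annotated transcripts, intronic reads count towards a gene only where an annotated isoform includes that intron. These are shares of TPM, in which few reads on a short isoform weigh heavily, and shares of reads can differ. Insig1-202 (757 bases) held 52.36, 78.1 and 103.21 of the 339, 445 and 721 expected counts of Insig1. Sqle-204 (4467 bases) held 177.74, 240.47 and 302.05 of the 240, 333 and 478 of Sqle. Shares of reads were not compared across members.

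Over 50% of the TPM lay in retained-intron isoforms in 9 of the 26, against 45.3% of the 6697 genes. Npc2 led with 78.7, 80.6 and 77.6% in replicates 1, 2 and 3. Ebp, on only 33, 49 and 72 expected counts, had 57.3, 97.3 and 74.5%, and Sqle 77.7, 78.6 and 64.7%. Lpcat3, Lss, Msmo1, Srebf2, Nr1h3 and Npc1 followed, with means from 68.5 ± 8.9% down to 52.7 ± 2.54%. In the read-based table the count was also 9 of 26, but Srebf2 (42.7%), Msmo1 (38.4%), Nr1h3 (45.2%) and Npc1 (40.4%) were under 50%, while Stard4 was at 78.9%, against 23.8% in the alignment-based table. At the other end, Fdft1 had 5.62 ± 4.87% and Nsdhl 13.8 ± 5.36%. Abca1 has no such isoform, and its 50-exon transcript Abca1-201 carried 77.49, 129.46 and 115.49 TPM, nearly the whole gene. The level of the main Npc2 coding transcript, Npc2-201, was 31.98, 32.86 and 33.27 TPM, far below the 156 TPM of the gene.

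**Figure D4:**
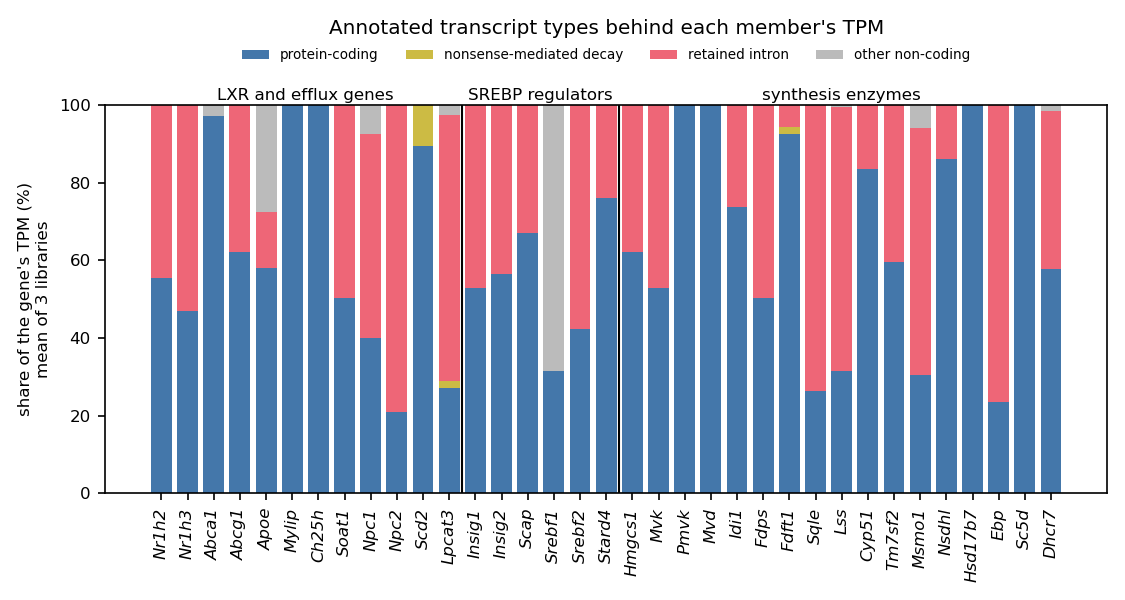
Mean share over 3 libraries of each gene's TPM held by annotated transcript types, for the 35 members with a value above 0 in every library. Retained-intron isoforms hold over 50% in 9 genes, Npc2 and Ebp among them, and other non-coding transcripts hold 68.4% in Srebf1.

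The choice of deposited quantification moved the members unevenly. The mean read-based TPM was above the alignment-based TPM in 27 of 36 members, against 8498 of 10877 detected protein-coding genes. The median ratio was 1.37 in members, against 1.31 in those genes. The read-based mean was at least 2 times as high in 6 members, against 17.8% of those genes. Dhcr7 had 9.75, 12.4 and 11.9 TPM read-based, 3.04 times its alignment-based mean, and Mvd had 12.2, 13.5 and 12.5 TPM, 2.62 times. Hsd17b7 and Lpcat3 were at 2.02 times and Insig2 at 2.00 times. The group order was the same in both tables, but the levels of these 6 genes, Stard4 included, carry this added uncertainty.

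**Figure D5:**
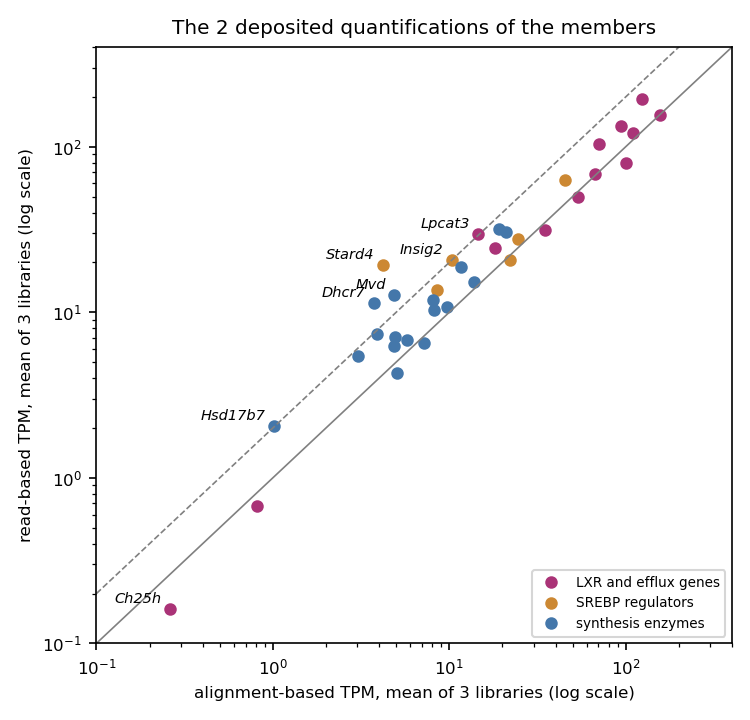
Mean TPM of each member in the read-based table (vertical, log axis) against the alignment-based table (horizontal, log axis), with lines of equality (solid) and of a 2-fold difference (dashed). Stard4, at 4.59 times, and Dhcr7, at 3.04 times, lie farthest above equality.

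Several members overlap a neighbour in genomic span, introns included. No source used here gives a strand setting, so reads from stretches that both genes transcribe cannot be told apart. Ctsb, at 440 TPM, overlaps 774 bases of Fdft1 on the opposite strand. The antisense gene Gm48342, at 7.2 TPM, overlaps 6190 bases of Hmgcs1, and Gm37648, at 24.8 TPM, overlaps 2563 bases of Soat1. Rmc1, at 60.6 TPM, overlaps 967 bases of Npc1, and Vps51, at 41.7 TPM, overlaps 532 bases of Tm7sf2 on the same strand. Gm20388, at 2.18 TPM, overlaps 9822 bases of Mvd, its whole span, on the opposite strand. Akap9, at 55.1 TPM, overlaps 166 bases of Cyp51, and Gm49502, at 9.73 TPM, overlaps 2110 bases of Srebf2 on the same strand. The levels of Mvd, Fdft1, Hmgcs1, Soat1, Npc1, Tm7sf2, Cyp51 and Srebf2 may therefore include reads of a neighbour. Whether the overlapping bases lie in annotated exons of both genes was not checked.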

How the data were processed

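Chromatin-bound RNA was measured in 3 libraries of 1 group. Per the deposited README files, the gene and transcript tables called alignment-based here were made from reads aligned to the transcriptome (mm10, GENCODE M21), and the read-based table directly from reads. No source used here gives tools, versions or a strand setting. Expected counts (estimated reads per gene) were deposited by the authors without normalization; they were rounded to whole numbers for edgeR. The authors deposited TPM with short RNAs in its total. Posterior SDs of the counts were at most 6.26 reads in any member.

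The 36 members and the other gene lists were chosen with earlier results of these data known. Named are all members and, of each pathway list, the 3 highest genes and the lowest by mean TPM, with further list genes only beside a member. The rule was also meant for the marker lists, but these are given as sums, and the few markers named were chosen after their values were seen. Of these, 1 value is not reported here. Of all counts, 1.31, 0.48 and 0.24% fell in rows without a gene and stayed out of library sizes. Each pair of libraries differed by more than sampling noise, with a chi-square of 35.6 to 65.3 for each degree of freedom. A library at 0 allows 3 counts, or 0.254, 0.174 and 0.154 CPM. Intervals and floors cover counting error only.

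Spread was tested with edgeR 4.0.16 in R 4.3.3 (filterByExpr, TMM, intercept only, quasi-likelihood fit), setting each quasi-dispersion against the fitted trend by an F test. The scripts were tested on simulated data. Group medians used an exact sign-flip test over libraries. Promoter windows and names are RefSeq tables on GRCm38.p6, the same build as mm10. The remaining steps ran in Python 3.11.15 (scipy 1.17.1, pandas 2.3.3, numpy 2.4.6), with figures in matplotlib 3.10.9. Alternatives were the read-based table, another TPM denominator, pseudocount and filters, RLE size factors and leaving out each replicate.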

Additional observations from a re-analysis of the deposited data

How the results depend on the processing

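The differences between the medians of the 3 gene groups kept their direction under each of the alternatives tried, the read-based table and leaving out each replicate included. For LXR and efflux genes minus synthesis enzymes they ran from 2.51 with the read-based table to 3.36 with members of at least 1 TPM, for LXR and efflux genes minus SREBP regulators from 1.44 to 2.15, and for SREBP regulators minus synthesis enzymes from 1.07 to 1.32. The levels themselves moved. With the read-based table the medians were 20.6 TPM for SREBP regulators and 10.3 TPM for synthesis enzymes. With TPM taken over long non-coding and nuclear protein-coding genes, which leaves fewer genes in the denominator, they were 157, 37.7 and 13.3 TPM for LXR and efflux genes, SREBP regulators and synthesis enzymes. Without Ch25h, Soat1, Npc1 and Npc2 the LXR and efflux median was 53.9 TPM.

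With the read-based table, the log2 ratio of Insig1 over Insig2 was -0.0207 and that of Abca1 over Abcg1 -0.157, both reversed. Those of Npc2 over Npc1 (0.59, against 1.14) and Srebf2 over Srebf1 (-1.19, against -0.883) moved but kept their sign. The cause was not tested. Leaving out each replicate gave 0 to 1 members and 0 to 73 genes more variable than the trend, and no filter on low counts gave 50 genes. Members past 2-fold between replicates 2 and 1 came to 1 with TPM and 1 with 1 CPM added. Between replicates 3 and 1 they came to 6 with TPM and 5 with no filter on low counts. The shares of all genes at these settings are not given here, so these counts have no background to be read against. No paired analysis was possible because there is 1 group. With 3 libraries no sign-flip test can fall below 0.25, and members with few counts, such as Ch25h, Ebp and Hsd17b7, are limited by depth.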
